A study of Mus musculus with 8 samples.

Results

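Nuclear receptors are transcription factors that sense small lipophilic molecules, and this account describes 31 of them in livers of female mice exposed to dihydrotestosterone (DHT), a non-aromatizable androgen. The genes were taken from a list of 33 symbols, matched through Ensembl gene identifiers to the 14317 mouse genes of the deposited table. Vdr, the vitamin D receptor, and Hnf4g were not analysed here. The list was drawn up to leave out the sex steroid receptors, the bile acid receptor pathway and Hnf4a. It does hold both corticosteroid receptors, Nr3c1 and Nr3c2, so it is not free of steroid receptors, and it lacks Nr1d1. All 31 genes had a mean value of at least 10 and entered the test.

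Liver RNA came from 4 Con-Veh mice, which carried an empty pellet, and 4 Con-DHT mice, which carried a 10 mm DHT pellet, with 1 library per mouse. Pellets were implanted at 7 weeks of age. Both groups ate a western diet (WD) rich in fat, fructose and cholesterol for 8.5 weeks, and the study's methods describe an overnight fast before tissue collection. The labels give the genotype of both groups as WT. Each value is a normalized read count, that is, the reads counted on a gene divided by a scaling factor for its library. Groups were compared on log2(value + 1) with limma, a linear model whose estimate of the spread is shared across the 14312 genes tested, and a gene was called at a Benjamini-Hochberg adjusted p of at most 0.05 over all of them. A log2 difference of 1 is a doubling, and the added 1 makes differences of weakly expressed genes look smaller than they are.

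The libraries held between 13123962 and 17815944 reads on mouse genes, and 100% of the values were whole reads once the scaling was undone. Synthetic spike-in RNA took 1.68% of the reads of Con-Veh replicate 4 and between 2.22% and 3.61% of the other libraries. In an alternative scaling, values were divided by factors from the spike-ins. These ran from 0.675 to 1.49 within Con-Veh and from 0.839 to 1.02 within Con-DHT. A call missed with this scaling can thus reflect a wider spread as well as a smaller difference. The first principal component, with 45.4% of the variance, separated the groups. Among marker genes, 4 of 7 for Kupffer cells and macrophages and 2 of 6 for sinusoidal endothelium were called lower in Con-DHT. Of all tested genes, 2.61% were called lower. None of the 7 hepatocyte markers, 8 stellate cell markers, 5 cholangiocyte markers or 3 adipocyte markers was called by limma. At an unadjusted p of at most 0.05 only 1 gene passed among them, a stellate cell marker, where 23.2% of all genes did. In whole liver, fewer cells of a type and less RNA per cell cannot be told apart.

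Many of the liver's metabolic nuclear receptors work by pairing with a retinoid X receptor (RXR) on DNA. The peroxisome proliferator-activated receptors (PPARs), liver X receptors (LXRs), pregnane X receptor (PXR), constitutive androstane receptor (CAR), thyroid hormone receptors and retinoic acid receptors all do so, and in liver they control fatty acid oxidation, cholesterol export, drug metabolism and hormone responses. Others can bind DNA without RXR, such as the glucocorticoid receptor, the REV-ERB and ROR receptors of the circadian clock, and the estrogen-related receptors. The NR4A receptors can also do so, though not only in this way. They need no ligand and are made within minutes to hours of a stimulus. How much receptor transcript a liver makes is only a layer of this control, since ligand supply and coregulators set receptor activity.

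Across the 31 receptors, 2 transcripts were called, Thra and Nr4a2, and both were higher in Con-DHT. That is 6.45% of the receptors, against 7.21% of all tested genes called in either direction, of which 4.60% were called higher and 2.61% lower. The share called was therefore near that of the genome. An unadjusted p of at most 0.05 was reached by 9 receptors, or 29%, against 23.2% of all genes. The mice of the groups did not overlap for 4 receptors, Thra, Nr4a2 and Ppara, which lay higher in Con-DHT, and Nr6a1, which lay lower. This is 12.9% of the receptors, against 15.1% of all genes, of which 8.49% lay higher and 6.62% lower. The mean log2 value was higher in Con-DHT for 20 of 31 receptors, against 48.5% of all genes, and the median difference was 0.09 against -0.01 for all genes. After scaling to an equal total without the abundant Mup genes the mean was higher for 25 receptors and with spike-in scaling for 29, while the median of all genes moved to 0.09 and 0.20. For 14 receptors the 95% confidence interval of the log2 difference lay within 0.5 on either side of 0. The summed value of all 31 receptors ran from 30030 to 34416 in Con-Veh and from 30077 to 36590 in Con-DHT, so the groups overlapped. Among the alternatives, edgeR called 2 receptors where it called 7.15% of all genes, DESeq2 5 (11.0% of all genes), spike-in scaling 2 (4.50%) and scaling without the Mup genes 4 (9.01%).

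**Figure D1:**
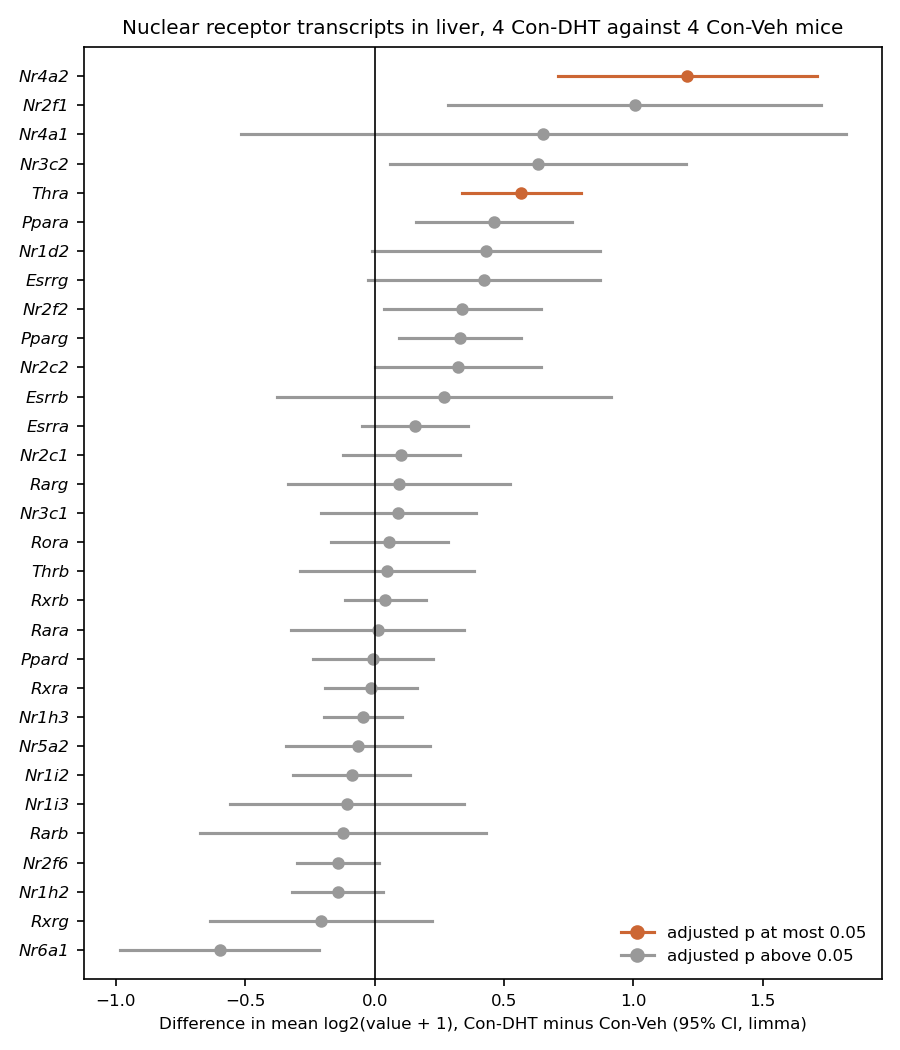
Difference in mean log2(value + 1) between 4 Con-DHT and 4 Con-Veh mice for each of 31 nuclear receptor transcripts, ordered by size, with 95% confidence intervals from limma. Only Nr4a2 at 1.21 and Thra at 0.57 (coloured) had an adjusted p of at most 0.05, and Nr6a1 at -0.60 was the lowest.

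The level of each receptor in the liver was compared per kilobase of exon, with the exon length taken from GENCODE M21. In Con-Veh, Rxra, the common partner of the liver's metabolic receptors, was highest at 1761 ± 76.8 normalized reads per kb (SD, n = 4), and it made up 23.5% of the summed level of the 31 receptors. Next came Nr1i3, which encodes CAR, at 1172 ± 274, and then Nr1h3, Nr2f6, Nr1i2 and Ppara, between 718 and 546. The range of Nr1i3 over mice did not meet that of Rxra or Nr1h3, whereas Nr1h3, Nr2f6 and Nr1i2 could not be ordered because their ranges overlapped. The next drop was to Nr1h2, at 285 ± 9.98, whose range met neither neighbour. From Rxrb at 206 to Rarb at 9.37, each receptor's range overlapped that of the next, with the exception of Nr5a2 and Nr3c1. The levels of Nr1i3 and Nr2f6 are uncertain, since exons of other genes on the opposite strand overlap 74.9% and 54.4% of their exon bases and it is not known whether counting used strand. At the low end stood Nr4a2 at 5.69, Nr2f1 at 4.63 and Esrrb at 2.56 per kb. Both thyroid hormone receptors were in the middle, Thra at 75.9 and Thrb at 61.3, with overlapping ranges. In Con-DHT the level of Ppara was 745 ± 76.6 per kb, above the 697 ± 46.7 of Nr1h3 with overlapping ranges, while Rxra stayed first at 1747 ± 110.

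**Figure D2:**
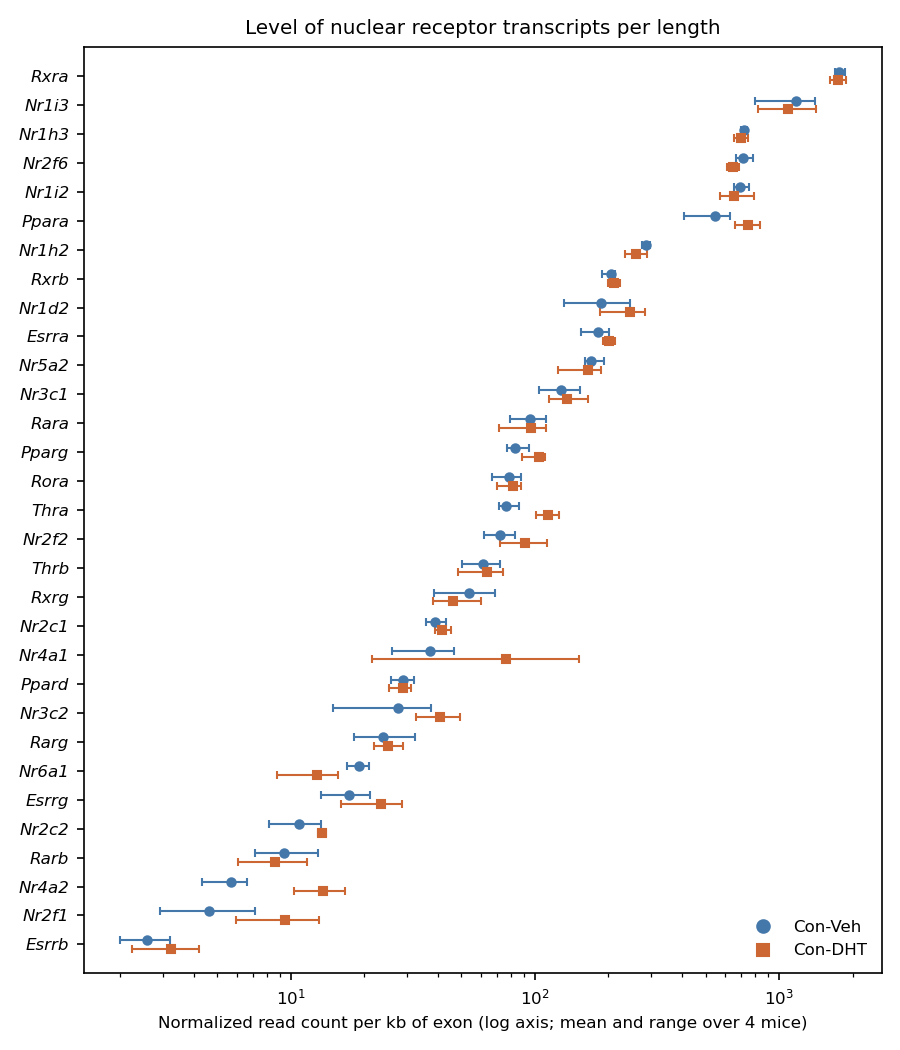
Normalized read count per kb of exon for 31 nuclear receptor transcripts (log axis), with the mean and the range over 4 mice of each group. Rxra led in both groups, at 1761 per kb in Con-Veh and 1747 in Con-DHT, and Esrrb was lowest at 2.56 and 3.21.

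Thra encodes thyroid hormone receptor alpha, the predominant form in heart and bone, whereas Thrb encodes the beta form that carries most of the thyroid hormone response of hepatocytes. In the Con-Veh mice, Thra had normalized read counts of 332.0, 327.2, 347.4 and 395.1 (replicates 1 to 4), and in the Con-DHT mice 572.9, 464.5, 470.5 and 576.1. Every Con-DHT mouse lay above every Con-Veh mouse, with the nearest pair at 395.1 and 464.5. The mean rose from 350.4 ± 31 to 521 ± 61.9 (SD, n = 4), a ratio of 1.49 and a log2 difference of 0.57 (SE 0.10, 95% interval 0.34 to 0.80, limma adjusted p = 0.0099). The exact two-sided permutation test over mice gave p = 0.029, the smallest that 4 against 4 allows. Thra was called in 8 of 8 fits that left out a mouse. With spike-in scaling the difference was 0.77 and the adjusted p 0.16.

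Thra lies on chromosome 11 from 98740638 to 98769006 on the plus strand (GENCODE M21, GRCm38), and 263 bases of its exons, or 5.70%, overlap exons of Nr1d1 on the opposite strand. Nr1d1 encodes the clock repressor REV-ERB alpha, and whether the authors' counting used strand is not given in the sources used here. Its values were 1163, 1746, 2700 and 1827 in Con-Veh and 3111, 2593, 2708 and 2314 in Con-DHT, a log2 difference of 0.58 that was not called (limma adjusted p = 0.13). Con-Veh replicate 3, with the highest Nr1d1 of its group, had a Thra value of 347.4. Con-Veh replicate 4, with the highest Thra of its group, had an Nr1d1 value of 1827. Con-DHT replicate 1 had the highest Nr1d1 of its group, at 3111, and a Thra value of 572.9. Con-DHT replicate 4 had the lowest Nr1d1 of its group, at 2314, and the highest Thra, at 576.1. Any part of the overlap in the Thra difference was not tested.

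Thrb was nearly level between the groups. Its values were 438.6, 532.7, 470.2 and 373.4 in Con-Veh and 545.5, 541.9, 441.9 and 358.7 in Con-DHT, so the groups overlapped. Con-DHT replicates 1 and 2 lay above every Con-Veh mouse, and replicate 4 lay below all of them. The log2 difference was 0.05 (SE 0.15, 95% interval -0.29 to 0.38, limma adjusted p = 0.89). Of 6 thyroid hormone receptor targets, none was called by limma and 1 passed 0.05 before adjustment, where 23.2% of all genes did. Their median log2 difference was 0.16.

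The NR4A receptors are immediate early genes that are switched on through cAMP and CREB, as well as by other signals. Nr4a2, also called Nurr1, was among the least abundant receptors. Its normalized read counts were 17.6, 26.1, 27 and 21.8 in Con-Veh, from 16 to 27 reads a library, and 67.7, 41.6, 64.3 and 46.7 in Con-DHT, from 43 to 69 reads. All Con-DHT mice lay above all Con-Veh mice. The mean rose from 23.1 ± 4.31 to 55.1 ± 12.8 (SD, n = 4), a ratio of 2.39 and a log2 difference of 1.21 (SE 0.23, 95% interval 0.71 to 1.71, limma adjusted p = 0.011, exact permutation p = 0.029). Nr4a2 was called in 8 of 8 fits without a mouse and in 10 of 10 other alternatives that tested it, including spike-in scaling (1.41, adjusted p = 0.0068).

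Nr4a1, or Nur77, which is known to regulate hepatic gluconeogenesis, was spread too widely in Con-DHT to be called. Its values were 144.0, 90.7, 163.7 and 123.6 in Con-Veh and 530.8, 75.5, 343.9 and 117.4 in Con-DHT. Con-DHT replicates 1 and 3 were above every Con-Veh mouse, replicate 2 was below all of them, and replicate 4 was within their range. The coefficient of variation was 79.3% in Con-DHT and 23.9% in Con-Veh, and the log2 difference was 0.65 (SE 0.53, 95% interval -0.52 to 1.82, limma adjusted p = 0.51). The Con-DHT replicates with the highest Nr4a1, 1 and 3, also had the highest Nr4a2 of their group.

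Nr4a2 belongs to the same class of early response genes as Fos and Egr1. Of 7 such genes tested beside it, 0 were called by limma, edgeR or DESeq2. At an unadjusted p of at most 0.05, 0 passed by limma, where 23.2% of all genes did. Their median log2 difference was -0.44. Fos was at 112, 29.9, 28 and 24.4 in Con-Veh and at 30.4, 11.6, 35.7 and 8.70 in Con-DHT, and Egr1 at 174 to 403 and 233 to 494. Fos and Egr1 were chosen after their values were seen. The summed value of the list ran from 2239 to 4005 in Con-Veh and from 1971 to 3309 in Con-DHT. Within Con-DHT, replicates 1 and 3 had the largest sums, at 3309 and 2846, as they had the largest Nr4a1 and Nr4a2 values. In Con-Veh, replicate 1 had the largest sum of all 8 mice, at 4005, and the lowest Nr4a2 of them, at 17.6. Their part in the Nr4a1 and Nr4a2 values was not tested.

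The 250 bases before the annotated starts of Nr4a1 and Nr4a2 are shown because these genes were highest in the same Con-DHT mice and because both are known CREB targets. The sequences are from RefSeq on GRCm38.p6, 5′ to 3′ on the strand of the gene. Capitals mark TGACG, the half-site of the cAMP response element, on either strand, so that a match on the opposite strand reads CGTCA.
Nr4a1, chr15:101266596-101266845, plus strand: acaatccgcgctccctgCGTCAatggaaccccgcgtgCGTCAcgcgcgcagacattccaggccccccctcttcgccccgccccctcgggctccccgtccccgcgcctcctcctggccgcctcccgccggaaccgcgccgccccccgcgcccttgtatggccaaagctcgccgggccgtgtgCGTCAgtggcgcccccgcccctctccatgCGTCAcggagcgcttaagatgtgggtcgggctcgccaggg
Nr4a2, chr2:57124004-57124253, minus strand: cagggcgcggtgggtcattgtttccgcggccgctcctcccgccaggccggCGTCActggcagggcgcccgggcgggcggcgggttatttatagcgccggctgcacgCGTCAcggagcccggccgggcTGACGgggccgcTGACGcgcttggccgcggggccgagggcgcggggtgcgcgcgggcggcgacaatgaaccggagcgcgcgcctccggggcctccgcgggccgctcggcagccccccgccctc
Each window held 4 matches. In Nr4a1 they began 233, 213, 69 and 40 bases before the start, and in Nr4a2 200, 144, 123 and 111 bases before it. A match was found in 17.8% of 32851 mouse promoters of this length, and 4 or more in 45 of them, or 0.137%. The cutoff of 4 is the count seen in these windows, which were picked for the reasons given above. The 0.137% is therefore a description and not a test. The full element TGACGTCA was in 1.55% of all promoters and in 0 of the 48 promoters of the 30 listed receptors that had one in the table. A match of letters is a description of the sequence and not evidence that a factor was bound in these livers.

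The PPARs are fatty acid sensors. PPARA drives fatty acid oxidation and ketogenesis in the fasted liver, PPARG favours lipid storage and is low in healthy hepatocytes, and PPARD is widely expressed. Ppara had values of 1570, 2365, 2409 and 2034 in Con-Veh and 2947, 3217, 2731 and 2532 in Con-DHT, and the groups did not overlap. Its mean was 2095 ± 388 against 2857 ± 294 (SD, n = 4), a log2 difference of 0.46 (SE 0.14, 95% interval 0.16 to 0.76), with a limma adjusted p of 0.070 that misses the threshold. It was called by DESeq2 (adjusted p = 0.027) and after scaling without the Mup genes (0.035), but not by edgeR (0.078).

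Pparg had values of 226.5, 279.9, 232.6 and 235.9 in Con-Veh and 316.9, 326.1, 261.3 and 322.9 in Con-DHT. Only Con-DHT replicate 3 lay within the Con-Veh range. The log2 difference was 0.33 (SE 0.11, 95% interval 0.09 to 0.57, limma adjusted p = 0.093), and it was called when Con-DHT replicate 3 was left out (0.41, adjusted p = 0.049) or after scaling without the Mup genes (0.43, 0.040). Adipocyte marker genes, summed, ran from 205 to 308 in Con-Veh and from 280 to 559 in Con-DHT, with 433 in Con-DHT replicate 3, where Pparg was lowest. Their part in the Pparg values was not tested. Ppard was level, at 216.9 ± 19 and 216.0 ± 20.1 (SD, n = 4), with a 95% interval of the log2 difference from -0.24 to 0.23.

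Among 21 PPARA targets, 2 were called, both higher, which is 9.52% against 4.60% of all genes called higher. They were Cpt1a, the gate of mitochondrial fatty acid oxidation, and Aldh3a2, a fatty aldehyde dehydrogenase. Cpt1a had values of 12416, 10600, 9918 and 11304 in Con-Veh and 14982, 15908, 14856 and 16871 in Con-DHT (log2 difference 0.50, limma adjusted p = 0.012). By qRT-PCR in livers of mice on this diet, the study reported both Cpt1a and Pparg as unchanged by DHT. It had picked Cpt1a for that assay because the gene changed significantly in its RNA-seq, and Pparg for its known role in lipid metabolism. Aldh3a2 rose from 10940 ± 1853 to 15758 ± 993 (SD, n = 4; log2 difference 0.54, limma adjusted p = 0.030), and its call was lost in 5 of 8 fits without a mouse. Neither was called with spike-in scaling (adjusted p = 0.28 and 0.23). The mean was higher in Con-DHT for 18 of the 21 targets, with a median log2 difference of 0.18. None of 8 PPARG targets was called by limma, and 4 had a higher mean in Con-DHT and 4 a lower one. Before adjustment 3 passed 0.05, where 23.2% of all genes did, and the differences ran from -0.97 to 0.69. Cd36, a fatty acid transporter on this list, is named because the study reported it lower with DHT by qRT-PCR and western blot. Cd36 fell from 2468 ± 357 to 1462 ± 634 (SD, n = 4) with overlapping groups. Its log2 difference was -0.84 (limma adjusted p = 0.078), called by DESeq2 (0.032) but not by edgeR (0.11).

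**Figure D3:**
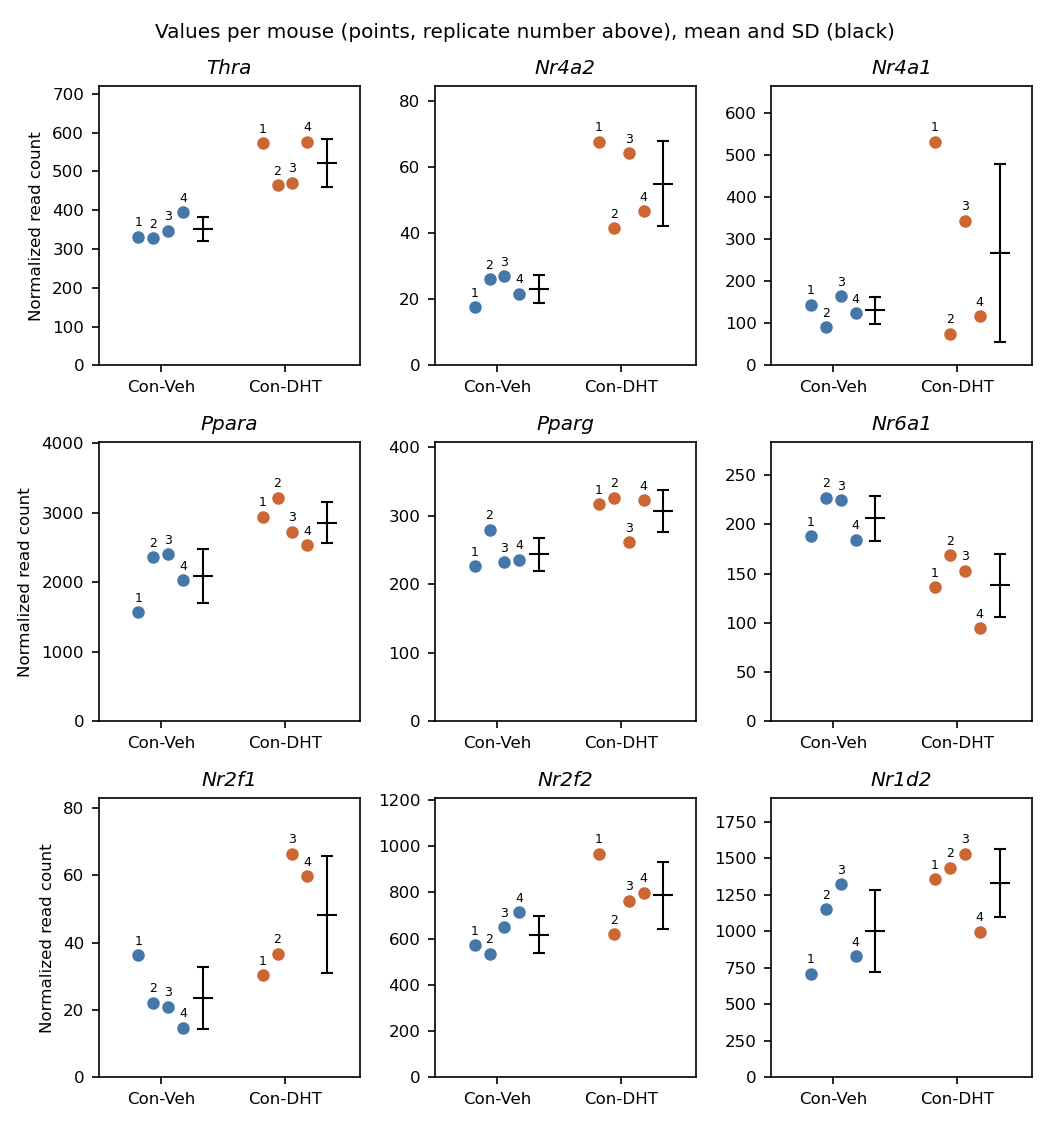
Normalized read count in each of 4 Con-Veh and 4 Con-DHT mice for 9 nuclear receptor genes (points, with the replicate number above each), with the mean and SD in black and axes that start at 0. Thra, Nr4a2 and Ppara were higher in every Con-DHT mouse than in any Con-Veh mouse, Nr6a1 was lower, and Nr4a1 reached 530.8 and 343.9 in only Con-DHT replicates 1 and 3.

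The RXRs are the shared partners of the PPARs, LXRs, PXR, CAR, thyroid hormone and retinoic acid receptors. Rxra, the most abundant receptor, had values of 9646, 10199, 9250 and 9387 in Con-Veh and 9683, 10242, 9441 and 8793 in Con-DHT. The groups overlapped, and the 95% interval of the log2 difference ran from -0.19 to 0.16. Rxrb was also level (0.04, interval -0.12 to 0.20), and Rxrg, the least abundant form, gave -0.21 with an interval from -0.64 to 0.22.

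The retinoic acid receptors Rara, Rarb and Rarg had log2 differences of 0.01, -0.12 and 0.09, each with a limma adjusted p above 0.81. Rarb is expressed in stellate cells, which store vitamin A. Its values were 39.6, 37.6, 67.9 and 52.2 in Con-Veh and 46.1, 31.9, 61.2 and 41.3 in Con-DHT, and the stellate cell markers summed to between 1983 and 6104 in Con-Veh and between 2550 and 3194 in Con-DHT. The highest stellate sum and the highest Rarb of Con-Veh were both in replicate 3, whereas in Con-DHT Rarb was highest in replicate 3, with the lowest stellate sum, and lowest in replicate 2, with the highest. Exons of Top2b on the opposite strand cover 34.1% of those of Rarb, and Top2b itself was called higher (log2 difference 0.35, limma adjusted p = 0.027). Of 6 retinoic acid receptor targets, 1 was called lower, Tgm2, a transglutaminase, from 2602 ± 360 to 1906 ± 218 (SD, n = 4; log2 difference -0.45, limma adjusted p = 0.039), against 2.61% of all genes. Tgm2 was not called in 6 of 8 fits without a mouse, nor after scaling by the spike-ins (0.90) or without the Mup genes (0.086).

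The LXRs sense oxysterols and drive cholesterol efflux and lipogenesis. Nr1h3, LXR alpha, had values of 1785, 1861, 1764 and 1813 in Con-Veh and 1662, 1835, 1873 and 1644 in Con-DHT, with overlapping groups. Its log2 difference was -0.04 (SE 0.07, 95% interval -0.19 to 0.11). Nr1h2, LXR beta, had a difference of -0.14 (interval -0.32 to 0.03, limma adjusted p = 0.31). Of 11 LXR targets, 2 were called lower, or 18.2%, against 2.61% of all genes. They were Pltp, the phospholipid transfer protein, from 550.3 ± 38.5 to 424 ± 32.2 (SD, n = 4; log2 difference -0.38, limma adjusted p = 0.025), and Abcg1, a cholesterol exporter abundant in macrophages, from 168 ± 25.4 to 119 ± 9.03 (-0.49, adjusted p = 0.046). Pltp was called in 3 and Abcg1 in 1 of 8 fits without a mouse, and neither was called with spike-in scaling (adjusted p = 0.92 and 0.90) or without the Mup genes (0.084 and 0.085). The Kupffer cell and macrophage markers were lower beside them, with a summed value of 6335 to 7836 in Con-Veh and 4295 to 5826 in Con-DHT and a lower mean for 7 of 7. Their part in the LXR target differences was not tested.

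CAR and PXR are the xenobiotic sensors of hepatocytes. Nr1i3, which encodes CAR, had values of 3512, 5063, 5910 and 6215 in Con-Veh and 4134, 6228, 5183 and 3630 in Con-DHT. The groups overlapped almost entirely, and the log2 difference was -0.11 (SE 0.20, 95% interval -0.56 to 0.34, limma adjusted p = 0.80). Its annotated exons share 74.9% of their bases with Tomm40l on the opposite strand, a gene that was at 512.6 ± 117 and 534.5 ± 107 (SD, n = 4). Nr1i2, which encodes PXR, differed by -0.09 with an interval from -0.31 to 0.14.

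Several targets of these receptors were called while the receptor transcripts were not. Of 17 CAR and PXR targets, 7 were called and all 7 were lower. That is 41.2% against 2.61% of all genes called lower, and the median log2 difference of the list was -0.83. The lists were chosen with earlier results of these data known. The study itself gives Cyp2b13 and Cyp2b9 among its most lowered genes in these livers. This share is therefore a description and not a test. Ugt1a1, which conjugates bilirubin, was at 3483, 3630, 3648 and 3665 in Con-Veh and at 1877, 2280, 2142 and 1826 in Con-DHT, groups that did not overlap (log2 difference -0.83, SE 0.08, limma adjusted p = 0.00044). Cyp2c37 fell from 13063 ± 1405 to 5999 ± 941 (SD, n = 4; -1.13, adjusted p = 0.00076) and Cyp2c29 from 13145 ± 764 to 6701 ± 2064 (-1.02, adjusted p = 0.011). Cyp2b13, a P450 known to be higher in female than in male mouse liver, had the largest difference, from 3240 ± 945 to 32.1 ± 27.4 (-7.07, limma adjusted p = 0.00025). With spike-in scaling, whose factors differed widely within Con-Veh, Ugt1a1, Cyp2c37 and Cyp2c29 were not called (adjusted p = 0.38, 0.059 and 0.13). Members within the Cyp2b family, and within the Cyp2c family, are close copies of each other, so the values of single members are uncertain, and several are known to differ between male and female mouse livers.

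**Figure D4:**
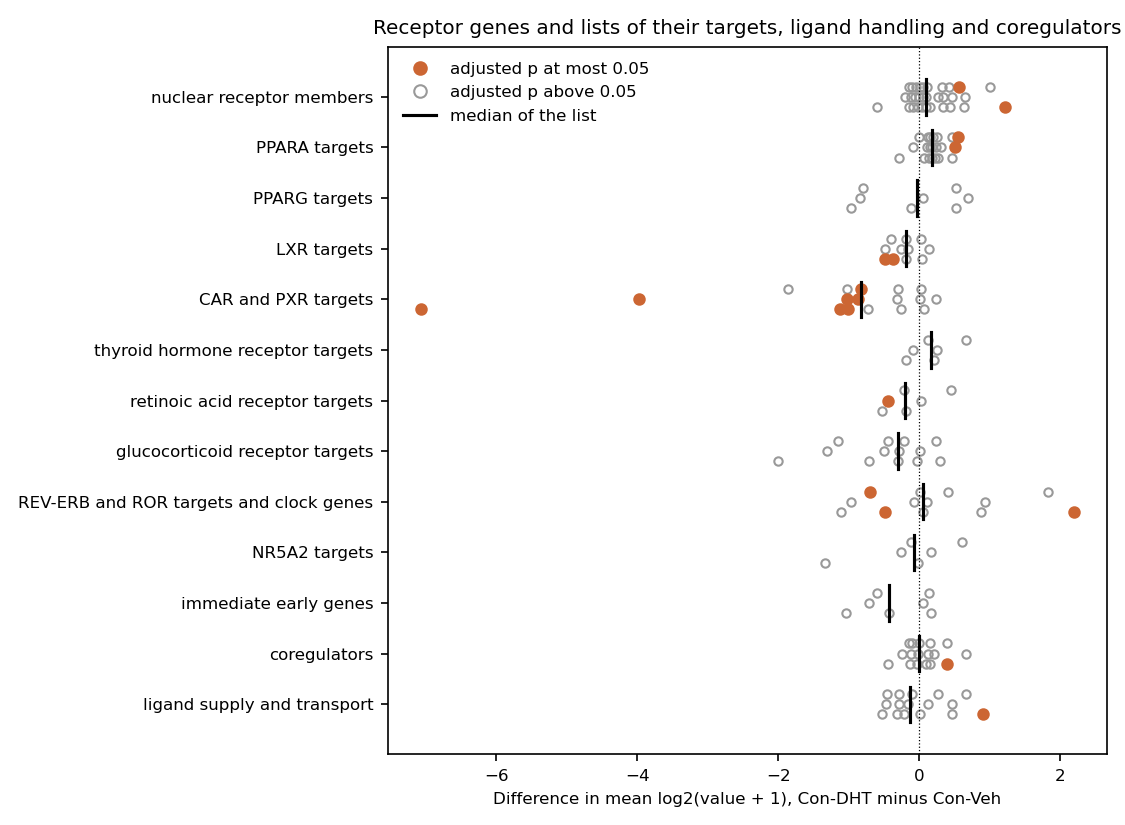
Difference in mean log2(value + 1), Con-DHT minus Con-Veh, for the 31 nuclear receptors and for 12 lists of target, ligand handling and coregulator genes (points are genes, filled where the adjusted p was at most 0.05, and vertical bars are list medians). The CAR and PXR targets had the lowest median, at -0.83, while the medians of the receptors (0.09) and the PPARA targets (0.18) lay above 0.

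Nr3c1 encodes the glucocorticoid receptor and Nr3c2 the mineralocorticoid receptor. Nr3c1 had values of 797.0, 1026, 1177 and 926.0 in Con-Veh and 1263, 1019, 1011 and 880.5 in Con-DHT, with a log2 difference of 0.09 (SE 0.13, 95% interval -0.21 to 0.39). Nr3c2 had values of 96.7, 211.4, 242.6 and 163.6 in Con-Veh and 318.9, 290.3, 241.9 and 209.8 in Con-DHT. The groups overlapped between 209.8 and 242.6, and the log2 difference of 0.63 (SE 0.26, 95% interval 0.06 to 1.2) was not called (limma adjusted p = 0.17). Of 13 glucocorticoid receptor targets, 0 were called by limma, while 4 passed 0.05 before adjustment (23.2% of all genes did) and 10 had a lower mean in Con-DHT, with a median log2 difference of -0.30.

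Nr1d2 encodes REV-ERB beta, a clock repressor, and Rora the activator that competes with it for the same DNA sites. Nr1d2 was at 710.1, 1151, 1324 and 829.4 in Con-Veh and at 1356, 1437, 1531 and 997.9 in Con-DHT, with overlapping groups (log2 difference 0.43, SE 0.20, 95% interval -0.01 to 0.87, limma adjusted p = 0.22). Rora differed by 0.06 (interval -0.17 to 0.28). Clock genes varied widely within the groups: Dbp, a clock output gene, was at 140, 743, 1681 and 298 in Con-Veh and at 1828, 2583, 1965 and 903 in Con-DHT, and Arntl, which encodes BMAL1, at 272, 60.8, 58.9 and 193 in Con-Veh and 59.8, 45.5, 41.8 and 111 in Con-DHT. Con-Veh replicates 1 and 4 and Con-DHT replicate 4 thus had the highest Arntl and, within their group, the lowest Dbp. The order of the Con-Veh mice by Dbp, replicates 1, 4, 2 and 3 from low to high, was also their order by Nr1d2, Ppara and Nr3c2, and Con-DHT replicate 4 was the lowest of its group for all of these. Dbp and Arntl were chosen after their values were seen, no hour of collection per mouse is given in the sources used here, and the part of the clock genes in the receptor values was not tested.

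Of 13 REV-ERB and ROR targets and clock genes, 1 was called higher and 2 lower, against 4.60% and 2.61% of all genes. Nfil3, a repressor of D-box genes, fell from 607.5 ± 85.6 to 371 ± 34.7 (SD, n = 4; log2 difference -0.70, limma adjusted p = 0.0054) and was called in 8 of 8 fits without a mouse, though not with spike-in scaling (0.65). Cry1 fell from 144 ± 16.0 to 103 ± 10.0 (-0.48, adjusted p = 0.042), a call lost in 7 of 8 such fits. Bhlhe41, or Dec2, was at 18.7, 32.8, 97.8 and 20.02 in Con-Veh and at 220, 165, 166 and 98.9 in Con-DHT, so its groups nearly touched (log2 difference 2.2, SE 0.47, limma adjusted p = 0.020). It was called in 4 of 8 fits without a mouse.

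The orphan receptors COUP-TFI and COUP-TFII are encoded by Nr2f1 and Nr2f2, and Nr2f6 encodes EAR2. COUP-TFII is best known in venous endothelium. Nr2f1 was at 36.3, 22.2, 21.0 and 14.8 in Con-Veh and at 30.4, 36.8, 66.3 and 59.8 in Con-DHT. Con-Veh replicate 1 and Con-DHT replicate 1 overlapped, and the log2 difference of 1.00 (SE 0.32, 95% interval 0.28 to 1.72) was not called by limma (adjusted p = 0.094) or edgeR (0.091) but was called by DESeq2 (0.037) and with spike-in scaling (0.041). Nr2f2 was at 571.6, 535.6, 649.9 and 713.7 in Con-Veh and at 966.4, 618.4, 763.4 and 797.9 in Con-DHT, with a log2 difference of 0.34 (SE 0.14, 95% interval 0.04 to 0.64, limma adjusted p = 0.17). The sinusoidal endothelium markers went the other way, with a summed value of 3259 to 3620 in Con-Veh and 2399 to 2778 in Con-DHT. Nr2f6, whose exons share 54.4% of their bases with Ocel1 on the opposite strand, differed by -0.14 (interval -0.30 to 0.02), and Ocel1 by -0.41 (limma adjusted p = 0.078).

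The testicular receptors TR2 and TR4 are encoded by Nr2c1 and Nr2c2. Nr2c2 was at 122.0, 177.6, 198.7 and 149.7 in Con-Veh and, in a narrow band, at 208.0, 204.2, 192.9 and 193.5 in Con-DHT. Con-Veh replicate 3 lay inside that band, and the log2 difference was 0.32 (SE 0.14, limma adjusted p = 0.21). Exons of Mrps25 on the opposite strand cover 30.7% of those of Nr2c2. Nr2c1 differed by 0.10 with an interval from -0.12 to 0.33.

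The estrogen-related receptors, which are orphan receptors of mitochondrial gene control and do not bind estrogen, all had higher means in Con-DHT and none was called. Esrrg was at 82.4, 131.3, 117.8 and 99.2 in Con-Veh and at 176.6, 164.5, 141.9 and 100.01 in Con-DHT, where only replicate 4 lay in the Con-Veh range (log2 difference 0.42, SE 0.20, 95% interval -0.02 to 0.87, limma adjusted p = 0.24). Esrra differed by 0.16 (interval -0.05 to 0.36). Esrrb, with 11 to 25 reads a library, differed by 0.27, with a 95% interval from -0.38 to 0.92.

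Nr5a2 encodes LRH-1, a regulator of bile acid and cholesterol genes, and Nr6a1 the germ cell nuclear factor GCNF, a repressor best known in embryos and germ cells. Nr6a1, on chromosome 2 from 38723370 to 38927688 on the minus strand (GRCm38), was at 188.0, 226.8, 224.6 and 184.5 in Con-Veh and at 136.4, 168.4, 153.1 and 94.6 in Con-DHT. Every Con-DHT mouse lay below every Con-Veh mouse, with means of 206 ± 22.8 and 138 ± 31.8 (SD, n = 4). The log2 difference was -0.60 (SE 0.17, 95% interval -0.98 to -0.21) with a limma adjusted p of 0.067 that misses the threshold, an exact permutation p of 0.029, and a call by DESeq2 (0.023) but not by edgeR (0.072). Nr5a2 was at 945.4, 956.4, 1128 and 985.2 in Con-Veh and at 993.8, 1057, 1095 and 731.6 in Con-DHT (log2 difference -0.06, 95% interval -0.34 to 0.21). None of 6 NR5A2 targets was called by limma, and 1 passed 0.05 before adjustment, where 23.2% of all genes did.

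Coregulators carry the receptors' signal to the chromatin, and ligand supply decides whether a receptor is occupied. Of 17 coregulators, 1 was called, or 5.88% against 7.21% of all genes. It was Carm1, an arginine methyltransferase and coactivator. Carm1 was at 466, 413, 442 and 441 in Con-Veh and at 549, 582, 550 and 644 in Con-DHT, groups that did not overlap (log2 difference 0.40, SE 0.08, limma adjusted p = 0.015). It was called in 8 of 8 fits without a mouse and not with spike-in scaling (0.43). Of 16 genes for ligand supply and transport, 1 was called, or 6.25%, again near the share of all genes. Aldh1a3, which makes retinoic acid, was at 57.2, 37.6, 33.9 and 51.3 in Con-Veh and at 91.2, 92.9, 66.3 and 83.7 in Con-DHT (log2 difference 0.90, SE 0.20, limma adjusted p = 0.025), and its call was lost in 5 of 8 fits without a mouse. Over all 12 lists, 134 genes were tested and 17 were called, which is 12.7% against 7.21% of all genes. Of these, 5 were higher and 12 lower, and 7 of the 12 were CAR and PXR targets. Because the lists were chosen with earlier results of these data known, the shares called in them are a description.

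The receptors varied about equally in both groups, the median coefficient of variation being 14.3% among Con-Veh mice and 15.3% among Con-DHT mice. Single mice stood out in many of them at once. Con-Veh replicate 1 was the lowest of its group for 13 of the 31 receptors, among them Ppara, Nr3c2, Nr1d2 and Nr1i3, and Con-DHT replicate 4 was the lowest of its group for 14, among them the same 4. Con-Veh replicate 3 was the highest of its group for 13 receptors and Con-DHT replicate 1 for 12, where an even spread over 4 mice would give 7.75. The receptors are not independent of each other, so these counts are a description. Without Con-Veh replicate 1, 17 of 31 receptors had a higher mean in Con-DHT, and without Con-DHT replicate 4, 24 had, while both Thra and Nr4a2 were called in each of these fits.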

How the data were processed

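Liver RNA of 4 Con-Veh and 4 Con-DHT mice was analysed, grouped and numbered by the labels. Per the labels' processing notes and the study's methods, the authors trimmed reads with Trimmomatic, aligned them with STAR (build GRCm39), assigned reads with a single location to exons by featureCounts and used DESeq2. The values they deposited are a normalized signal, that is, read counts divided by a size factor for each library. The table held 14371 features, of which 54 were spike-ins, and the least covered feature had 81 reads in all. Columns of other series numbered 0.

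Some items are not reported here. The receptors and the gene lists were chosen with earlier results of these data known. From each list, the genes with an adjusted p of at most 0.05 were named, at most 4 by smallest p. The main test was limma 3.58.1 (R 4.3.3; lmFit, eBayes with trend) on log2(value + 1) for genes with a mean of at least 10. Reads recovered from the values (100% whole within 0.001 reads) served edgeR 4.0.16 (quasi-likelihood, TMM) and DESeq2 1.42.0. These called 1024 and 1569 genes, against 1032 by limma. Exact permutation tests were two-sided over 70 arrangements. Other alternatives were pseudocounts of 0.1 and 5, a mean of at least 50 or no filter at all, scaling by the total left without the Mup genes, by the upper quartile or by the ERCC spike-ins, no trend, a replicate block, and leaving out each mouse. Libraries of a group differed beyond sampling noise (chi-square per degree of freedom 19.2 to 61.6 over 12 pairs). The tests were tried on simulated data. Symbols, exon lengths and overlaps came from GENCODE M21 (GRCm38), an older build than that of the alignment, so lengths are approximate, and promoters from RefSeq GRCm38.p6. Python 3.11.15 was used for tables and plots.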

Additional observations from a re-analysis of the deposited data

Results flagged for a closer look

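In groups of 4 mice, a mouse was singled out when its gap to the nearest other mouse, divided by the range of the group, was above Dixon's 95% critical value for 4 mice. Over the 90 groups tested, about 1 in 20 is singled out by chance, and 2 were. Rxrb was at 747.6 in Con-Veh replicate 4 while the other Con-Veh mice were between 837.7 and 841.6, a gap of 0.958 of the range. Pparg was at 261.3 in Con-DHT replicate 3 while the other Con-DHT mice were between 316.9 and 326.1, a gap of 0.858 of the range.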

How the results depend on the processing

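Thra and Nr4a2 were called in 8 of 8 fits without a mouse, and among the 11 other alternatives Thra missed with spike-in scaling and Nr4a2 was not tested with a mean of at least 50. The number of receptors called was 1 with a mean of at least 50 (27 receptors tested), 4 after scaling without the Mup genes and 5 with DESeq2. All genes called numbered 648 with a mean of at least 50, 644 with spike-in scaling and 1569 with DESeq2, and between 633 and 905 without a mouse (648 and 633 without Con-Veh replicates 2 and 4, 659 and 662 without Con-DHT replicates 1 and 2). Genes called over the 12 lists numbered 28 with DESeq2 and from 9 to 17 without a mouse (10 and 9 without Con-Veh replicates 2 and 4, 10 and 10 without Con-DHT replicates 1 and 4). Scaling moved the median of all genes from -0.01 to 0.09 without the Mup genes and to 0.20 by the spike-ins, and the share of calls that were higher from 63.8% to 83.9% and 88.5%, so directions near 0 depend on it. The signs reversed with spike-in scaling were Rarb 0.077, Rxra 0.19, Ppard 0.20, Nr1h2 0.063, Nr1h3 0.16, Nr1i2 0.12, Nr1i3 0.099, Nr2f6 0.066, Nr5a2 0.14, all but Ppard below that median. Without the Mup genes they were Rxra 0.085, Ppard 0.092, Nr1h3 0.054, Nr1i2 0.010, Nr5a2 0.034. With a mouse left out, the log2 difference of receptors near 0 crossed it and ranged over Nr1i3 -0.28 to 0.016, Nr3c1 -0.0051 to 0.18, Nr5a2 -0.13 to 0.065, Ppard -0.058 to 0.053, Rara -0.073 to 0.15, Rarb -0.28 to 0.041, Rarg -0.024 to 0.25, Rora -0.017 to 0.13, Rxra -0.048 to 0.025, Rxrb -0.00010 to 0.072, Thrb -0.042 to 0.17. Of 585 recomputed receptor values, 541 kept direction and side of the threshold, 8 gained a call, 1 lost it and 35 reversed, 21 of these without a mouse.

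Same-numbered mice of the groups did not deviate together (correlations -0.19, -0.006, -0.022 and -0.076), so the number was not taken as a pairing. With the replicate block, 3 receptors (Nr6a1 in addition, adjusted p = 0.042) and 700 genes were called, and the list genes called numbered 13. With 4 mice a group and 16 to 27 reads a library for Con-Veh, Nr4a2 sits near the depth at which small differences cannot be detected.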

Other observations

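Other short motifs were counted in the 250 bases before the starts of the listed receptor genes, on both strands, for the 30 genes with a promoter in the RefSeq table (GRCm38.p6). The nuclear receptor half-site AGGTCA was found for 8 of the 30 genes, and in 9 of 48 promoters against 14.0% of all 32851 promoters. The E-box CACGTG, bound by clock activators, was found in 3 of 48 promoters against 6.02% of all, and TTCNNNGAA, the site of STAT factors, in 3 of 48 against 7.02%. The half-site TGACG was found in 10 of 48 promoters against 17.8% of all, and AGAACA, the androgen receptor half-site, in 4 of 48 against 16.1%. These are descriptions of the letters in these windows.

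The lymphoid markers that were tested, 2 of 5, had lower means in Con-DHT. Of these 1, the immunoglobulin gene Igkc, was called, where 2.61% of all genes were called lower. Of 5 neutrophil markers only Prtn3 was tested, at between 5.99 and 79.1 in Con-Veh and between 0.968 and 7.85 in Con-DHT. Its log2 difference was -2.42, and limma did not call it, though its unadjusted p was at most 0.05. The study, which used DESeq2, gives Prtn3 among its most lowered genes in these livers.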
